A study of Homo sapiens with 3 samples.

Results

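The cytosolic ribosomal protein genes are the genes of the protein subunits of the cytosolic ribosome and of their close paralogs. They were chosen by symbol, as RPL or RPS followed by a number with an optional A, L, AL, L1 or X, with RPLP0, RPLP1, RPLP2 and RPSA added. This rule found 85 of the 17448 genes in the table, 46 of the large subunit, 31 of the small subunit and 8 paralogs (RPL3L, RPL7L1, RPL10L, RPL22L1, RPL26L1, RPL36AL, RPL39L and RPS27L). The RNA came from H128, an established human small cell lung cancer (SCLC) line, 48 h after transfection. A single library was made from cells given a control siRNA (siCont) and 1 library from cells given each of 2 siRNAs against ESRRG, labelled siERRG2 and siERRG3, to find the transcripts that respond to loss of the nuclear receptor ERRγ. Neither the labels nor the methods settle which of the study's siRNA sequences each ESRRG library received, all groups are the same line at the same time after transfection, and no library of untransfected cells was analysed here.

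With 1 library per group, no difference below has a replicate check, and no p-value is given. Read counts summed to between 19861937 and 20016780 per library. ESRRG, the targeted gene, had 806 counts in siCont against 211 in siERRG2 and 230 in siERRG3, so its level was low in both libraries named for its siRNAs. Of 12 neuroendocrine marker genes, 10, 10 and 11 had at least 10 counts in siCont, siERRG2 and siERRG3, and their summed level was 1367, 1245 and 1576 FPKM. UCHL1 alone gave 729, 696 and 1006 FPKM of these sums, so the order of the sums rests largely on 1 gene. STMN2 was at 0 in siCont and siERRG3, and DDC had 3 counts in siCont. The fibroblast markers, 6 in all, summed to between 22.9 and 32.5 FPKM, and the 3 leukocyte markers in the table to between 2.59 and 2.91 FPKM. The part of these marker levels in the results below was not tested.

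Ribosomal proteins surround the ribosomal RNAs of both subunits and are needed in matched amounts, because each ribosome holds a single copy of nearly all of them. Their mRNAs are among the most abundant in growing cells. Most begin with a terminal oligopyrimidine (TOP) tract, a C at the start of the mRNA followed by a run of pyrimidines, which places their translation under the control of the growth kinase mTOR through the protein LARP1. Several ribosomal proteins also have paralogs that are expressed in few tissues, among them RPL3L in muscle and RPL10L and RPL39L in the testis.

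The start sites of the ribosomal protein genes were examined first, since the sequence was not part of the rule. RefSeq start sites (GRCh38.p14) were available for 68 of the 85 genes. A tract was counted where the annotated start base was a C followed by at least 4 pyrimidines on the transcribed strand, at any listed start of a gene. It was found in 47 of the 68 genes (69.1%), against 7.29% of the 11295 matched genes that reached 10 counts in some library, and 6.91% when the ribosomal protein genes were left out. Large and small subunit genes were alike, with 28 of 38 and 18 of 24, and RPL22L1 was the single gene among the 6 matched paralogs. Among the other groups of translation genes, the tract was found in 4 of 8 elongation factors and their partners, in 8 of 25 initiation factors and in 9 of 64 ribosome biogenesis genes.

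The windows below run from 15 bases before to 15 bases from the annotated start, 5′ to 3′ on the strand of the gene, with the tract in capitals. They show genes described later for their level or for their difference between libraries. The first 6 hold a tract and the last 4 do not.
RPL39 (chrX:119791616-119791645, minus strand): ttcttccgccagcttCCCTCCTCTTCCTTT
RPL11 (chr1:23691791-23691820, plus strand): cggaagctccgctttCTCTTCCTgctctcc
RPL12 (chr9:127451392-127451421, minus strand): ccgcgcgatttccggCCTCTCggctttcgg
RPS18 (chr6:33272060-33272089, plus strand): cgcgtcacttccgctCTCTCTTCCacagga
RPS21 (chr20:62387088-62387117, plus strand): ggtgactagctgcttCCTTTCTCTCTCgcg
RPL22L1 (chr3:170870181-170870210, minus strand): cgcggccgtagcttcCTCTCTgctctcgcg
RPS26 (chr12:56041903-56041932, plus strand): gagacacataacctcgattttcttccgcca
RPS29 (chr14:49598696-49598725, minus strand): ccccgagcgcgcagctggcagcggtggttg
RPL3 (chr22:39319609-39319638, minus strand): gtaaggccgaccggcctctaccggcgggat
RPL7L1 (chr6:42879601-42879630, plus strand): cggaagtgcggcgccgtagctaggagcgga

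The tract of RPL39 was the longest, at 19 bases, and runs past the end of its window. In RPS26 and RPL3 a pyrimidine run lay within 10 bases of the annotated start without beginning at it. Counting any such run within 10 bases raised the share to 58 of 68 ribosomal protein genes (85.3%), but also to 41.4% of all matched genes. The motif TNAAGGTCA, a form of the element that ERR receptors bind, was searched on both strands of the 300 bases around each start. No ribosomal protein gene held it, and 0.761% of all matched genes did; this says only that these letters are not in these windows.

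**Figure D1:**
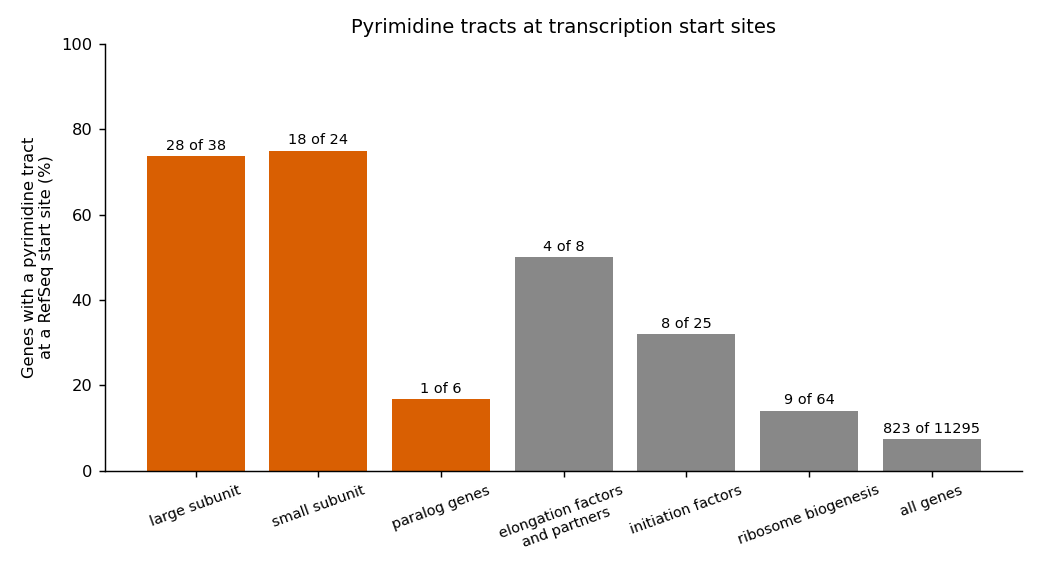
Share of genes with a pyrimidine tract at a RefSeq start site (y axis, %), for ribosomal protein genes by class (orange) and for other groups (grey); the numbers over the bars give the genes with a tract of those matched. Large and small subunit genes stand at 73.7% and 75%, and all genes at 7.29%.

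The ribosomal protein genes were among the most abundant in every library. Together they took 7.69% of all counts in siCont (95% exact interval 7.67 to 7.70%, counting error only), 7.90% in siERRG2 (7.89 to 7.91%) and 8.19% in siERRG3 (8.18 to 8.20%). The share was lowest in siCont and highest in siERRG3. The intervals did not overlap, but they hold no variation between replicate libraries. Large subunit genes took 4.47%, 4.57% and 4.71% of the counts, and small subunit genes 3.16%, 3.29% and 3.41%. The paralog genes took 0.0545% in siCont, 0.0479% in siERRG2 and 0.0643% in siERRG3. RPL7L1 held 6446 of their 10823 counts in siCont, and without it the share was 0.0220%, 0.0232% and 0.0262%, lowest in siCont. These are shares of each library, and RNA per cell was not measured. In bulk RNA, a change in the cells present and a change in RNA per cell cannot be told apart.

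Levels of different genes were compared as FPKM, which scales a count for transcript length and library size. Among the 77 genes that are not paralogs the median level was 1202 FPKM in siCont against 1193 in siERRG2 and 1260 in siERRG3. In each library 64 of the 77 lay within 2-fold of the median. Of the 50 genes with the highest FPKM in the table, 34 were ribosomal protein genes in siCont, 33 in siERRG2 and 34 in siERRG3; by counts, without scaling for length, 15 were in each library.

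The 5 highest in siCont were RPS27, RPS2, RPS4X, RPL41 and RPS6. RPS27 had 4238 FPKM in siCont against 3881 in siERRG2 and 4042 in siERRG3. RPS2, a protein near the mRNA entry of the small subunit, had 3790, 3989 and 4243 FPKM. RPS4X, encoded on the X chromosome, had 3724, 3972 and 4076 FPKM. RPS27 was above RPS2 in siCont and below it in both ESRRG libraries. RPL41, the smallest ribosomal protein, had 2959, 3155 and 2687 FPKM, and RPS6, the substrate of S6 kinase, had 2482, 2582 and 2647 FPKM.

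At the low end, apart from the paralogs, RPL27A had 177 FPKM in siCont, RPL13 182 and RPS23 210. The deposited values of these 3 genes are scaled by long transcripts, of 4931, 4567 and 3337 bases, while the coding lengths are 444, 633 and 429 bases. Per kilobase of coding length RPL27A moved from place 77 of 77 to place 30, RPS23 from 75 to 43 and RPL13 from 76 to 58. RPL10A then had the lowest value of the 77. Places 1 to 3 by FPKM, held by RPS27, RPS2 and RPS4X, became places 2, 5 and 3, and RPL41, with a coding length of 75 bases, took place 1. Per kilobase of MANE transcript, RPL27A, RPS23 and RPL13 stayed low, at places 73, 71 and 63, and RPL10A stood at place 58. The order at the low end thus depends on the length used.

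**Figure D2:**
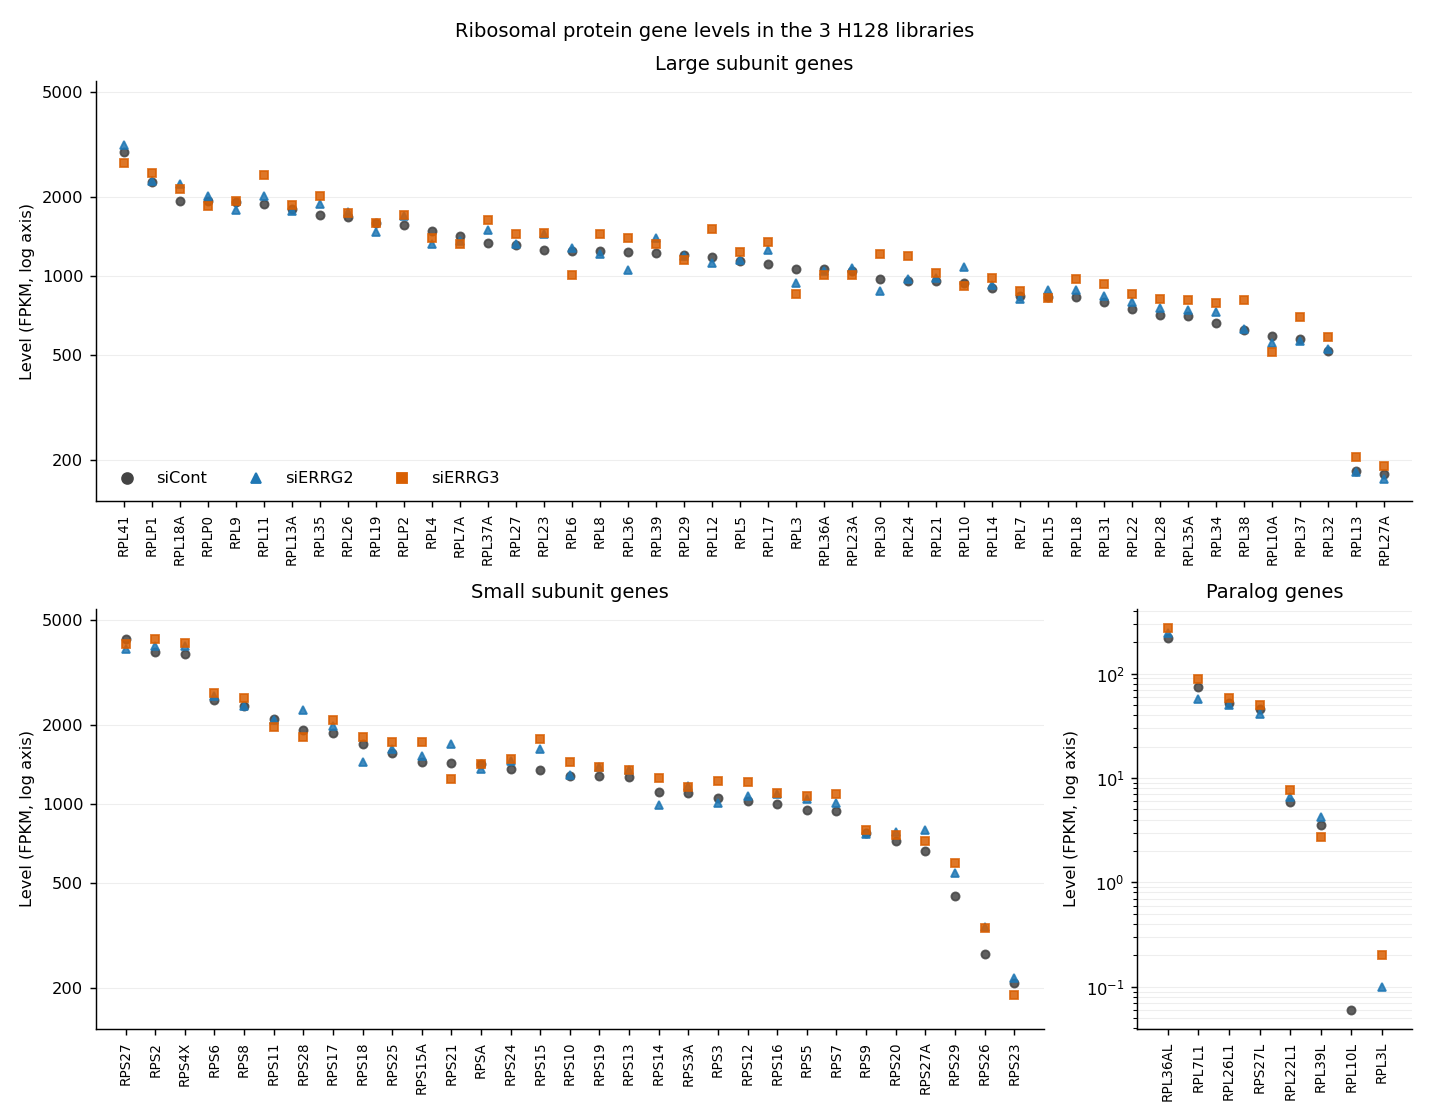
Level of each ribosomal protein gene (y axis, FPKM, log axis) in siCont (circles), siERRG2 (triangles) and siERRG3 (squares), 1 library each, ordered within each class by the level in siCont. Most large and small subunit genes lie near 1000 FPKM and the paralogs lie below their parents; RPL3L in siCont and RPL10L in siERRG2 and siERRG3 are listed at 0 and not drawn.

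Each paralog had a lower level than its parent gene. RPL36AL, which differs little from RPL36A, had 219 FPKM in siCont against 247 in siERRG2 and 273 in siERRG3, or 20.6%, 23.6% and 27.1% of the level of RPL36A. RPL7L1 had 74.3, 56.6 and 88.1 FPKM, or 8.84%, 6.94% and 9.99% of RPL7. RPL26L1 stood at 3.14% of RPL26 in siCont and RPS27L at 1.07% of RPS27. Some of these percentages rest on the transcript length used: the length behind the FPKM of RPL7L1 was 4369 bases and its coding length 765 bases. Per kilobase of coding length in siCont, RPL7L1 stood at 46.1% of RPL7, RPL36AL at 13.1% of RPL36A and RPS27L at 3.47% of RPS27, and per kilobase of MANE transcript at 13.0%, 14.8% and 0.1997%. By each of these lengths all 8 paralogs stayed below their parents.

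RPL22L1 had 231 counts in siCont against 258 in siERRG2 and 301 in siERRG3, which is 0.793%, 0.830% and 0.892% of the level of RPL22. RPL39L had 52, 62 and 40 counts and stood at 0.292%, 0.304% and 0.207% of RPL39, which lines the exit tunnel for the growing protein chain. RPL10L had 1 count in siCont and 0 in both ESRRG libraries. RPL3L had 0 counts in siCont against 3 in siERRG2 and 7 in siERRG3, and like RPL10L it did not reach 10 counts in any library. The other 83 genes did. Parents and paralogs of similar sequence can share reads. The counts of all 6 of these measured paralogs were not whole numbers in every library, nor were those of the parents RPL36A and RPL39. Those of the parents RPL7, RPL22, RPL26 and RPS27 were whole. Whether the authors' counting divided reads between parents and paralogs was not tested.

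In siERRG2, the ribosomal protein genes stayed near their siCont levels. Differences are log2 ratios of scaled CPM, the counts divided by a library size, and a gene counted as lower or higher at a 1.2-fold difference, the threshold used in the study. Of the 83 genes, 1 was lower (RPL7L1) and 1 higher (RPS26), while 19.2% of all 14031 genes tested were lower and 16.4% higher. Well-counted genes vary less: among the 698 genes that averaged at least 5000 counts over the libraries, 9.89% were lower and 3.15% higher. The median difference over the 83 genes was 0.05, with an SD of 0.13 across genes, and 51 were above 0. Over all genes the median was -0.00038 and the SD 0.43. Over the 698 genes averaging at least 5000 counts the median was -0.018 and the SD 0.20. Another 8 ribosomal protein genes lay within 0.05 of the threshold on the log2 scale without reaching it, and none lay within 0.05 past it.

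RPL7L1 had 6446 counts in siCont against 4920 in siERRG2 and 7629 in siERRG3. Its ratio of siERRG2 to siCont was 0.755 (interval 0.727 to 0.783) and that of siERRG3 to siCont was 1.16 (1.13 to 1.203). It was thus lowest in one ESRRG library and highest in the other. RPS26, a protein at the mRNA exit of the small subunit, had 6383 counts in siCont against 8096 in siERRG2 and 8080 in siERRG3. Both ESRRG libraries lay above siCont and close to each other, with ratios of 1.25 (1.21 to 1.30) and 1.24 (1.204 to 1.29). With TMM scaling RPS26 was the single ribosomal protein gene 1.2-fold higher in both libraries and none was 1.2-fold lower in both, while 7.26% of all genes were higher and 7.88% lower in both. RPS29, just short of the threshold in siERRG2, passed it in both libraries with CPM from total counts (0.28 and 0.40 on the log2 scale), with DESeq2 size factors (0.27 and 0.39) and with FPKM (0.29 and 0.41). These comparisons share the siCont library. The counts of RPS26 and RPL7L1 were not whole, and no ribosomal protein gene with whole counts passed the threshold in siERRG2.

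The next highest genes in siERRG2 were RPS29 (0.26), RPS27A (0.25), RPS15 (0.24) and RPS28 (0.24), and the next lowest RPS18 (-0.24), RPL36 (-0.24), RPL3 (-0.19) and RPL4 (-0.17), all as log2 differences from siCont. None of these 8 reached 1.2-fold. By group, the median difference was 0.02 over 46 large subunit genes, 0.08 over 31 small subunit genes and 0.04 over 6 paralogs.

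In siERRG3, more ribosomal protein genes differed and most differences were upward. Of the 83 genes, 12 were 1.2-fold higher and 3 lower, against 23.2% higher and 25.1% lower among all 14031 genes, and 10.5% higher and 15.8% lower among those averaging at least 5000 counts. The share of higher ribosomal protein genes was thus below that of all genes, and the share of lower ones was below both backgrounds. The higher genes RPS29, RPL38, RPL22L1 and RPL36AL themselves averaged fewer than 5000 counts. The share of higher genes over all 83 is therefore not at like depth with the second background, and no excess over it can be read from these values. The median difference was 0.12 (SD 0.16 across genes), 63 of 83 were above 0, and the median over all genes was -0.0033. Large subunit genes had a median of 0.12, with 7 higher and 2 lower, small subunit genes 0.11, with 3 higher and 0 lower, and paralogs 0.18, with 2 higher and 1 lower. Within 0.05 of the threshold lay 5 genes just past it and 9 just short of it.

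Of the higher genes, 3 belong to the small subunit. RPS29 had 2915 counts in siCont against 3535 in siERRG2 and 3872 in siERRG3, a ratio to siCont of 1.31 (1.24 to 1.37) in siERRG3. RPS15, another protein of the small subunit head, had 13640, 16305 and 17945 counts, a ratio of 1.29 (1.27 to 1.32). Both were lowest in siCont and highest in siERRG3, with siERRG2 between. RPS26, given above, was the other.

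Another 7 of the higher genes belong to the large subunit. RPL38, which in mice is needed for the translation of a set of Hox mRNAs, had 4452 counts in siCont against 4476 in siERRG2 and 5792 in siERRG3, a ratio of 1.28 (1.23 to 1.33). RPL11, which with RPL5 can bind the p53 regulator MDM2, had 22882, 24523 and 29731 counts, a ratio of 1.28 (1.26 to 1.30). RPL12, at the base of the stalk that recruits elongation factors, had 14882, 14214 and 19135 counts, a ratio of 1.26 (1.24 to 1.29). In these 3 genes siERRG2 lay near siCont and siERRG3 above both. RPL30 had 10234, 9205 and 12848 counts, and the other 3 were RPL24, RPL17 and RPL37A, with ratios in siERRG3 of 1.23, 1.21 and 1.21. The 2 higher paralogs were RPL22L1, at 1.28 (1.08 to 1.53), and RPL36AL, at 1.23 (1.17 to 1.30).

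The lower genes were RPL3, RPL6 and RPL39L. RPL3, a protein that reaches toward the peptidyl transferase centre, had 28005 counts in siCont against 24823 in siERRG2 and 22635 in siERRG3. Its ratios to siCont were 0.876 (0.861 to 0.891) and 0.795 (0.781 to 0.809), so both ESRRG libraries lay below siCont. RPL6 had 23697, 24493 and 19368 counts, with ratios of 1.02 (1.004 to 1.04) and 0.804 (0.789 to 0.819). For RPL39L the ratio of siERRG3 to siCont was 0.756, and its interval of 0.488 to 1.16 includes 1, so that difference is not detectable at this depth.

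Of the P-stalk proteins, RPLP0 had 45862 counts in siCont against 48128 in siERRG2 and 44344 in siERRG3, and the differences of RPLP0, RPLP1 and RPLP2 from siCont were between -0.07 and 0.12 on the log2 scale. RPL5, the partner of RPL11 on a small ribosomal RNA of the large subunit, had 24166, 24301 and 26312 counts, a log2 difference of 0.10 in siERRG3, while RPL11 was at 0.35. The pair therefore differed by more in siERRG3 than in siERRG2, where RPL5 was at -0.01 and RPL11 at 0.08. No test of that difference was possible.

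Among other proteins with known roles, RPS3, at the mRNA entry, had 29921, 28937 and 35262 counts. RPSA, also known as the laminin receptor, had 32632, 31134 and 32843 counts, and RPS19, the gene most often mutated in Diamond-Blackfan anaemia, had 13311, 14428 and 14455 counts. RPS6 had 39788, 41472 and 42790 counts. RPS3 was 0.21 above siCont in siERRG3 on the log2 scale, and the other 3 were within 0.10 of siCont in both libraries. RPL13A, which also takes part in silencing inflammatory mRNAs, was at -0.03 in siERRG2 and 0.04 in siERRG3, and RPL10A at -0.11 and -0.21.

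RPS27A and FAU, whose ribosomal proteins are made as fusions with ubiquitin or a ubiquitin-like protein, were above siCont in both ESRRG libraries. RPS27A had 11608 counts in siCont against 13959 in siERRG2 and 12752 in siERRG3. FAU, which encodes RPS30 and lies outside the symbol rule, had 5763, 6689 and 7365 counts. In siERRG3, FAU was 0.33 above siCont on the log2 scale, past 1.2-fold, and RPS27A was at 0.11. RACK1, a scaffold protein of the small subunit that also lies outside the rule, was at 0.05 in siERRG2 and 0.13 in siERRG3.

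The 3 read-through genes join a ribosomal protein gene to its neighbour and are listed apart in the table. RPS10-NUDT3 had 180 counts in siCont against 77 in siERRG2 and 46 in siERRG3, while RPS10 had 15819, 15992 and 17967. The read-through gene fell from 1.13% of the sum of both in siCont to 0.479% and 0.255%, with log2 differences of -1.22 and -1.95. Adding its counts to those of RPS10 left RPS10 at -0.01 in siERRG2 and 0.15 in siERRG3. RPL36A-HNRNPH2 took 13.1%, 16.2% and 13.5% of the sum with RPL36A, and RPL17-C18orf32 took 3.55%, 3.53% and 2.74% of the sum with RPL17. How the counting divided reads between these overlapping genes was not tested.

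The ESRRG libraries lay on the same side of siCont for some ribosomal protein genes and on opposite sides for others. The 95% interval of the count ratio to siCont, which covers counting error only, lay above 1 in 44 genes in siERRG2 and 60 in siERRG3, and below 1 in 23 and 16. Over all 14031 genes it lay above 1 in 21.7% and 27.1%, and below 1 in 22.4% and 28.5%; these shares depend on depth, and ribosomal protein genes are counted more deeply than most. It lay above 1 in both libraries for 35 of the 83 genes (42.2%), among them RPS26, RPS29, RPS15 and RPL11, where 9.12% of all genes and 21.1% of those averaging at least 5000 counts did so. It lay below 1 in both for 6 (7.23%), which were RPL3, RPL4, RPL7A, RPL10A, RPL36A and RPS27, against 10.5% and 23.1%. For 21 genes (25.3%) it lay above 1 in one library and below 1 in the other, against 10.4% of all genes and 25.5% of those averaging at least 5000 counts, so this share was near that of well-counted genes. For 11 of these 21 (13.3% of the 83) the ESRRG libraries were also at least 1.2-fold apart, against 9.54% and 17.2%. Unless stated otherwise, background shares include the ribosomal protein genes themselves, which make up a larger part of the genes averaging at least 5000 counts than of all genes.

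Set directly against each other, siERRG3 and siERRG2 differed by at least 1.2-fold in 16 of the 83 genes, 12 higher and 4 lower in siERRG3, against 26.4% higher and 25.3% lower over all genes, and 15.2% and 13.6% among those averaging at least 5000 counts. RPL7L1 had the largest difference upward, at 0.62 on the log2 scale, followed by RPL30 at 0.47 and RPL12 at 0.42. RPL39L had the largest downward, at -0.61, followed by RPS21 at -0.45. The value of RPL39L rests on 62 counts in siERRG2 and 40 in siERRG3, with a wide interval of the ratio, 0.42 to 0.97. RPS21 had 10780 counts in siCont against 12861 in siERRG2 and 9481 in siERRG3, and was highest in siERRG2 and lowest in siERRG3. RPS28 had 13309, 15896 and 12699 counts, in the same order. RPL36 had 10116, 8690 and 11511 counts and RPS18 had 17302, 14845 and 18530, both lowest in siERRG2 and highest in siERRG3.

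**Figure D3:**
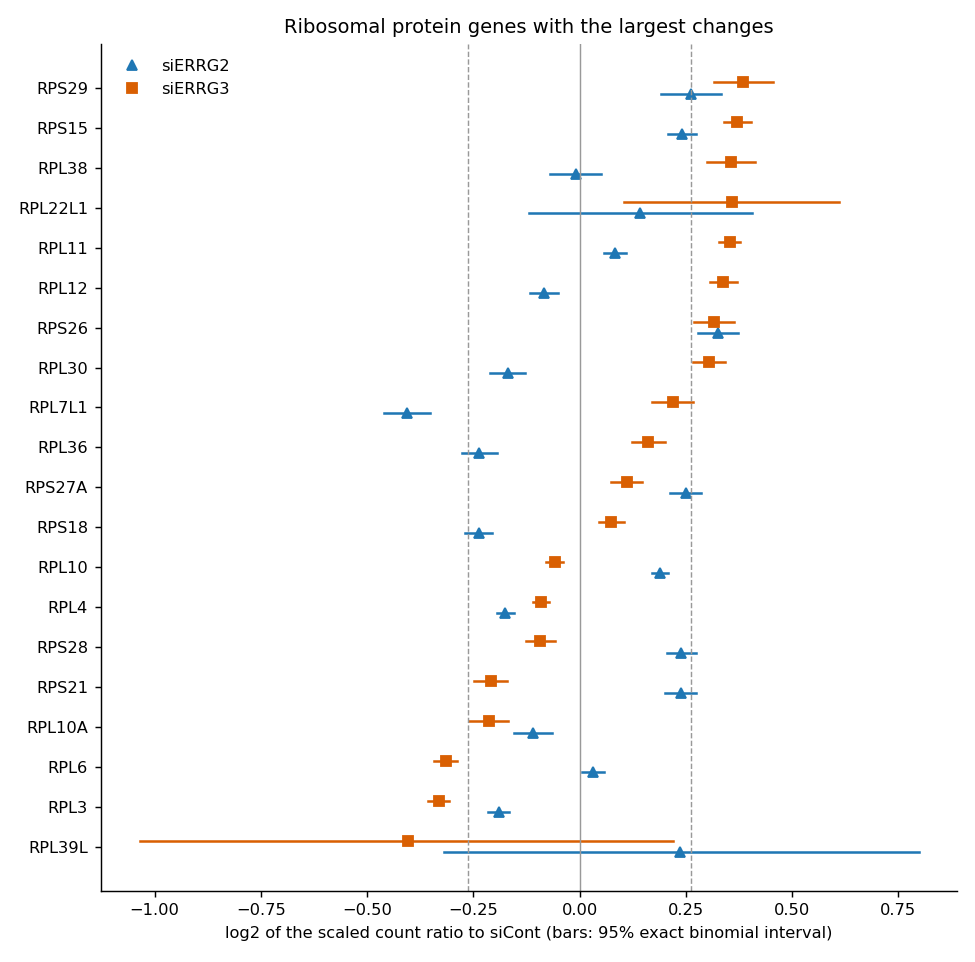
Ratio to siCont (x axis, log2 of the scaled count ratio) of the ribosomal protein genes with the largest differences in any of the 3 comparisons, in siERRG2 (triangles) and siERRG3 (squares); horizontal bars are 95% exact binomial intervals, which cover counting error only, and dashed lines mark 1.2-fold. RPS26 lies past the upper line in both libraries, genes such as RPL7L1, RPL36, RPS18, RPS28 and RPS21 lie on opposite sides of 0, and RPL39L and RPL22L1 have the widest bars.

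Ordered by coding length, the 26 shortest of the 77 genes (75 to 405 bases) had a median log2 difference from siCont of 0.07 in siERRG2 and 0.18 in siERRG3. The 25 of middle length (405 to 564 bases) stood at 0.06 and 0.13, and the 26 longest (576 to 1281 bases) at -0.02 and 0.05. In siERRG3, 5 of the shortest, 5 of the middle and 0 of the longest were 1.2-fold higher. Of all genes 23.2% were, and of those averaging at least 5000 counts 10.5%. Both lower genes that are not paralogs, RPL3 and RPL6, were among the longest. Across the 77 genes Spearman's rho with coding length was -0.33 in siERRG2 and -0.31 in siERRG3, and -0.11 for siERRG3 against siERRG2. With the siCont count, which also enters the difference, it was -0.28 and -0.43. All points come from the same 3 libraries and both comparisons use siCont, so these are descriptions of those libraries.

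Genes with and without a tract at the annotated start differed little in siERRG2. The 46 large and small subunit genes with a tract had a median log2 difference of 0.05, and the 16 without one 0.05. In siERRG3 the medians were 0.11 and 0.06, within ranges of -0.21 to 0.36 with a tract and -0.33 to 0.39 without. Most of the 16 genes, RPS26 and RPL3 among them, held a pyrimidine run within 10 bases of the annotated start. Such a run was found in 34 of 38 large and 22 of 24 small subunit genes. The split therefore rests on the exact annotated start and cannot separate genes that lack a TOP tract.

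Genes that build the ribosome were examined beside those that form it. Ribosome biogenesis genes, a list of 75 factors for ribosomal RNA synthesis, processing and export, took 1.21% of the siCont counts, 1.24% of the siERRG2 counts and 1.41% of the siERRG3 counts. In siERRG2, 5 were 1.2-fold higher and 3 lower (6.67% and 4%), with a median log2 difference of 0.06, where 16.4% and 19.2% of all genes were. In siERRG3, 27 were higher and 2 lower (36.0% and 2.67%), with a median of 0.20, where 23.2% and 25.1% of all genes were. Of genes averaging at least 1000 counts, 8.01% were higher and 10.7% lower in siERRG2, and 14.8% and 20.8% in siERRG3. SBDS, which acts in the last steps of large subunit maturation, had 2517, 2796 and 4277 counts, a log2 difference of 0.74 in siERRG3. EMG1, a ribosomal RNA methyltransferase, had 673, 783 and 1047 counts, and NPM1, the nucleolar protein nucleophosmin, had 26485, 27396 and 32522. These 3 genes were highest in siERRG3. RRS1, which helps to bring RPL5 and RPL11 into the particle, had 672, 501 and 861 counts, lowest in siERRG2 and highest in siERRG3. TCOF1, which supports ribosomal RNA transcription, had 4165, 3164 and 4388 counts and was 0.41 below siCont in siERRG2. RIOK2 was 0.49 above siCont in siERRG2 and 0.43 in siERRG3, and HEATR1 was 0.41 below it in siERRG3.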

How the data were processed

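RNA of H128 cells was sequenced in 3 libraries, siCont, siERRG2 and siERRG3, grouped by sample title. The methods name BWA and Bowtie 2 with GRCh37/hg19 for alignment. The submitters' processing notes name TopHat2, HTSeq and DESeq2, with GRCh38, hg19 and hg38, and gene positions in the table match GRCh38; HTSeq is a counting program, but the notes give no tool a role. Which program made the deposited table, and any RNA selection, are not given in the sources used here. The labels describe a strand-specific library kit, but whether counting used strand is not stated. The authors deposited expected counts (estimated counts) per gene, not normalized, of which 54.0% to 54.9% per library were whole. A further deposited value of the authors names no unit and behaves as FPKM: over 7220 genes, its ratio to the count moved between libraries as the library total did (1.002 against 1.002 in siERRG2 and 1.009 against 1.008 in siERRG3). The authors' log2 ratios and p-values were not used.

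Counts were rounded. Genes that reached 10 counts in any library entered the comparisons (14031). Scaling was by TMM (edgeR 4.0.16, R 4.3.3; factors 0.994, 1.003 and 1.003), and log2 CPM used a prior count of 2. Intervals are 95% Clopper-Pearson intervals (SciPy 1.17.1); their half-width for a ratio was 0.03 on the log2 scale in the median gene of the 83. They cover counting error only. Coding lengths are those of MANE Select transcripts (GENCODE, GRCh37). Start sites and their sequences are from RefSeq (GRCh38.p14). The scripts were tested on simulated data. One item of the lists is not reported here.

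The members and all gene lists were chosen with earlier results of these data known. Named genes were the stalk, RPL5 and RPL11, paralog, parent, fusion, landmark and read-through genes, the 5 highest and lowest in level, the 5 largest falls and rises in each comparison, any gene past 1.2-fold in both libraries, and for the other lists the 2 largest falls and rises in each comparison, with ESRRG, RACK1, EEF1A1, EEF2, TPT1, PABPC1, NPM1 and LARP1. RPL7A, RPL13, RPL17, RPL24, RPL27A, RPL37, RPL37A, RPS10, RPS14, RPS23, EIF4EBP1, MTOR, STMN2, DDC and UCHL1 were named after their values were seen. Alternatives were CPM from total counts, DESeq2 1.42.0 size factors, FPKM with a pseudocount of 0.1, a prior count of 0.5, no filter, means of at least 50 or 1000 counts, genes with whole counts, leaving out the paralogs, adding related genes, other lengths and a 1.5-fold threshold. The coding length, the background of at least 5000 counts the sums with read-through genes, the paralog share without RPL7L1 and the paralog percentages by other lengths were added after seeing the data.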

Additional observations from a re-analysis of the deposited data

Results flagged for a closer look

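For 11 ribosomal protein genes the interval of the count ratio to siCont lay on opposite sides of 1 in siERRG2 and siERRG3, and the ESRRG libraries were at least 1.2-fold apart (13.3% of 83). Of all genes 9.54% did the same, and of those averaging at least 5000 counts 17.2%. With 1 library per siRNA the difference was not tested. As log2 differences of siERRG3 from siERRG2, 8 were upward: RPL7L1 at 0.62, RPL30 at 0.47, RPL12 at 0.42, RPL36 at 0.40, RPS14 at 0.34, RPS18 at 0.31, RPL37 at 0.30 and RPS3 at 0.28. The other 3 were downward, with RPS21 at -0.45, RPL6 at -0.35 and RPS28 at -0.33. RPL7L1 was the single paralog among them. Of the 11, RPL7L1, RPL12 and RPL6 had counts that were not whole numbers in every library.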

How the results depend on the processing

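With 1 library per group no replicate could be left out. No paired analysis was possible because each group has 1 library. The 368 values of single named genes moved by at most 0.03 on the log2 scale under 4 alternatives of scaling, value and prior count; 9 of them changed sign, all of RPL38, RPL5 and RPLP1 in siERRG2, whose values lie within 0.01 of 0. In siERRG2, where 1 ribosomal protein gene was higher and 1 lower, 3 were higher with CPM from total counts, 2 with DESeq2 size factors and 3 with FPKM. Without a filter 2 were higher and 2 lower, without the paralogs 0 were lower, and among genes with whole counts 0 were higher and 0 lower. In siERRG3, whole counts left 6 higher and 1 lower of 50 genes, and 2 lower against siERRG2; the small subunit medians became 0.15 and 0.091. At 1.5-fold, 0 ribosomal protein genes were higher or lower than siCont in either library, and between the ESRRG libraries 1 was higher and 1 lower. Of the biogenesis genes, a mean of at least 1000 counts (58 genes) left 2 higher in siERRG2, and 17 higher and 1 lower in siERRG3; whole counts (43 genes) left 1, 15 and 0, and 1.5-fold left 0 higher and 0 lower in siERRG2 and 2 and 0 in siERRG3. Fewer genes enter under those filters. The share of counts in siCont, siERRG2 and siERRG3 was 7.63%, 7.85% and 8.12% without the paralogs, 7.88%, 8.11% and 8.41% with read-through genes, FAU and RACK1 (a set chosen after seeing the data), 5.34%, 5.47% and 5.74% over genes with whole counts, and 20.7%, 21.1% and 21.3% of summed FPKM, always highest in siERRG3. The median level became 1062, 1062 and 1145 when CPM were divided by MANE transcript length in kilobases, and 1651, 1768 and 1902 when divided by coding length. For the other lists, 237 of 288 counts stayed within 1.5 times.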

Other observations

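A list of 10 genes held AAR2 and chaperones that escort ribosomal proteins to the nucleus or to the ribosome. Of these 10, 2 were 1.2-fold lower and 0 higher in siERRG2, and 0 lower and 3 higher in siERRG3. Of all genes, 19.2% were lower and 16.4% higher in siERRG2, with 25.1% and 23.2% in siERRG3. TSR2, the escort of RPS26, had 1749 counts in siCont against 1391 in siERRG2 and 2244 in siERRG3, while RPS26 was higher in both. NAP1L1 was at -0.35 and 0.11 on the log2 scale, PDCD2 at 0.06 and 0.39, and PDCD2L at 0.14 and 0.56. PDCD2 and PDCD2L are escorts of RPS2.

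Of 31 translation initiation genes, 0 were 1.2-fold lower and 1 higher in siERRG2, and 2 lower and 11 higher in siERRG3. Of all genes, 19.2% were lower and 16.4% higher in siERRG2, and 25.1% and 23.2% in siERRG3. All 31 averaged at least 1000 counts. Among all genes of that depth, 10.7% were lower and 8.01% higher in siERRG2, and 20.8% and 14.8% in siERRG3. EIF4G3, a scaffold of the cap-binding complex, had 4048, 3622 and 2405 counts, and EIF4G1 had 14358, 13103 and 11294. Both were lowest in siERRG3, while EIF5 and EIF3J were 0.40 and 0.39 above siCont there. EIF4G2 was 0.39 above siCont in siERRG2 and at -0.03 in siERRG3.

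Of 12 elongation factors and partners, 1 was lower and 1 higher in each library, beside the same shares of all genes. EEF1A1, a well-known TOP mRNA, had 163032, 161238 and 151543 counts, and EEF2 had 109573, 111462 and 125159. TPT1, another TOP mRNA, had 15681, 16996 and 15389 counts, and PABPC1, which binds poly(A) tails, had 33784, 33761 and 41171. EEF1A2 was at -0.35 in siERRG2, and PABPC4 at 0.43 in siERRG3. Of 6 ribosome-associated genes past the count minimum, 0 were lower or higher in either library. Over the 22 genes of mTOR signalling and TOP mRNA control, 2 were lower and 1 higher in siERRG2, and 5 lower and 6 higher in siERRG3, beside 19.2% and 16.4% of all genes in siERRG2 and 25.1% and 23.2% in siERRG3. LARP1 was at 0.01 and -0.09, MTOR at 0.02 and -0.36, TSC2 at -0.07 and -0.64, and EIF4EBP1 at -0.12 and 0.39. TSC1 was at -0.28 and -0.47, TIA1 at 0.20 and -0.59, RPS6KA1 at -0.45 and 0.11, and RPS6KA3 at 0.37 and -0.22. MLST8 was at 0.22 and 0.40, SSB at 0.09 and 0.46, and EIF4EBP3, with 100 counts in siCont, at -0.20 and 0.71.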
